A study of Rattus norvegicus with 6 samples.

Results

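The circadian clock genes measured here are Bmal1, Clock, Per1, Per2, Per3, Cry1, Cry2, Nr1d1, Nr1d2 and Dbp. They were found by matching the accession of each array probe to the rat gene table, in which Bmal1 also carries its older name Arntl, and they make up 10 of the 16575 genes that could be named. The 10 genes have 14 probes, and for genes with several the brightest was read. Neonatal rat ventricular cardiomyocytes (NRVCs, called NRVMs in the sample labels) are primary cells from the ventricles of newborn Sprague-Dawley rats. In this study they were prepared from the pooled hearts of 8 to 10 pups of 1 to 2 days of age and, per the labels, plated in serum-free medium, while the study's methods give a short low-serum step just before C3a. The control group was 3 cultures in control medium, and the C3a group was 3 cultures given recombinant C3a, the active fragment of complement C3, at 0.5 µg/ml for 12 h. Each culture was hybridised to its own 1-colour Agilent rat array, and the comparison asks which genes differ in level when C3a is present. The sources used here name no step meant to align the clocks of the cells, do not say whether the change of serum did so, and give no hour of harvest, and each culture was sampled at a single time.

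The clock of a mammalian cell is a loop of transcription. BMAL1 and CLOCK bind together to E-box sequences and switch on the Per, Cry, Nr1d1, Nr1d2 and Dbp genes. PER and CRY proteins then return to the nucleus and inhibit BMAL1 and CLOCK, while NR1D1 and NR1D2 (REV-ERB alpha and beta) repress Bmal1 through elements that they share with the ROR activators. DBP carries the rhythm to output genes through D-box sequences. In heart muscle this clock times fuel use, ion channels and growth signalling. In a culture whose cells are out of step, the bulk RNA level of a clock gene is an average over all phases.

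The promoters that tie these genes together are shown because the question below is whether the activator and repressor arms move together. Promoter windows of 250 bases before to 50 bases after the start were found for 9 of the 10 genes in RefSeq (GRCr8), and Cry1 was not among them. The following stretches are the 250 bases before the start on the strand of the gene, and capitals mark the motifs found. The Nr1d1 stretch is at chr10:84231813-84232062 on the minus strand, that of Bmal1 at chr1:176766078-176766327 on the plus strand, and that of Per2 at chr9:99496994-99497243 on the minus strand.
Nr1d1: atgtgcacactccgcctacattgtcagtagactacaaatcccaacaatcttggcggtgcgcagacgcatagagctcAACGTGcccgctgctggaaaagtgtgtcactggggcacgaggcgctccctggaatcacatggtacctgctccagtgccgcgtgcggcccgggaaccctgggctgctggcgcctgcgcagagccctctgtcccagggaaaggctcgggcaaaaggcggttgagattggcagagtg
Bmal1: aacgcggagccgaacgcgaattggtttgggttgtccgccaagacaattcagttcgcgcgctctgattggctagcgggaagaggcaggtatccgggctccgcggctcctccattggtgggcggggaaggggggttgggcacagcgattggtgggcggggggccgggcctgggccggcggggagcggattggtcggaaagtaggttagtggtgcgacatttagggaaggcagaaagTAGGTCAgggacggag
Per2: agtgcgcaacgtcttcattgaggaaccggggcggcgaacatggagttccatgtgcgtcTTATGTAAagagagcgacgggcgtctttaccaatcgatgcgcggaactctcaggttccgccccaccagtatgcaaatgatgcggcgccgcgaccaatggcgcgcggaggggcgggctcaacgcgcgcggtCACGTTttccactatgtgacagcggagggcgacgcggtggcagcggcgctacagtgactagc
In Bmal1 the capitals are TAGGTCA, the core of the element bound by REV-ERB and ROR proteins, which begins 16 bases before the start. In Nr1d1 they are AACGTG, the reverse complement of the E-box variant CACGTT, beginning 174 bases before the start. In Per2 they are CACGTT at 62 bases and the D-box TTATGTAA at 192 bases before the start. Both strands were searched for 5 kinds of motif. The canonical E-box CACGTG was in 0 of the 9 windows and in 6.42% of all 33469 windows of this length. The variant CACGTT was in 3 of the 9 windows (Nr1d1, Per2 and Cry2) and in 4.83% of all. The core written as TAGGTCA or TGGGTCA was in 1 of the 9 and in 6.60% of all, the D-box words TTATGTAA, TTACGTAA and TTATATAA in 1 of the 9 and in 1.48% of all, and the cAMP element TGACGTCA in 0 of the 9 and in 1.83% of all. A match describes these letters only.

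The cultures are heart muscle cells by the sample labels, and markers of several cell types were detected in them. All 8 of 8 cardiomyocyte markers were well above background on all 6 arrays, as were 7 of 8 fibroblast, 5 of 6 endothelial, 3 of 4 smooth muscle and 2 of 6 macrophage markers, so other cell types contributed RNA. The same held for 8556 of the 16575 named genes, and detection does not give the share of each cell type. Control replicate 1 stood apart, with 38.6% of its probes well above background where the other arrays had 53.7% to 57.3%, and with local background at a median of 47 units where they had 23 or 24. All arrays lay on 1 slide with controls on one side and C3a on the other, so slide side and treatment cannot be told apart. Signals are log2 background-corrected intensities from which the log2 of each array's own 75th percentile was subtracted. That percentile lay between 207 and 367 intensity units. Values of different probes are on different scales. Apart from the choice of the brighter probe of a gene, values are compared between arrays only, probe by probe or, for marker lists, as the sum over the same probes. Each of the 10 clock genes passed the background test on each of the 6 arrays.

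Between C3a and control, 9 of the clock genes differed by -0.13 to 0.16 log2 units, with groups that overlap. Nr1d1 had the largest difference, with a lower signal in each C3a culture than in any control. Across the 10 genes, 0 passed an adjusted p of 0.05 in limma, which fits a linear model per probe and moderates its variance with that of the rest. The share passing among all 10390 genes tested was also 0.0%. At an unadjusted p of 0.05, limma called 1 of the 10 members, against 5.35% of all genes. A count of 1 among 10 genes does not stand apart from that share. The member called by limma was lower, as were 2.43% of all genes, and 0 members were called higher, against 2.93%. The variance test named in the methods called 0 of the 10, and its share among all genes was not counted. Cultures of the same replicate number were also taken as pairs (the replicate block), a pairing read from how these same arrays deviated together. With the replicate block limma called the same count, 1 of 10, against 11.9% of all genes in either direction and 6.05% lower. At the adjusted threshold it called 0 of 10, against 0.0%. The median log2 fold change was 0.050 over the 10 members and 0.036 over all genes tested, and 7 members lay above 0, against 60.7% of all genes.

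**Figure D1:**
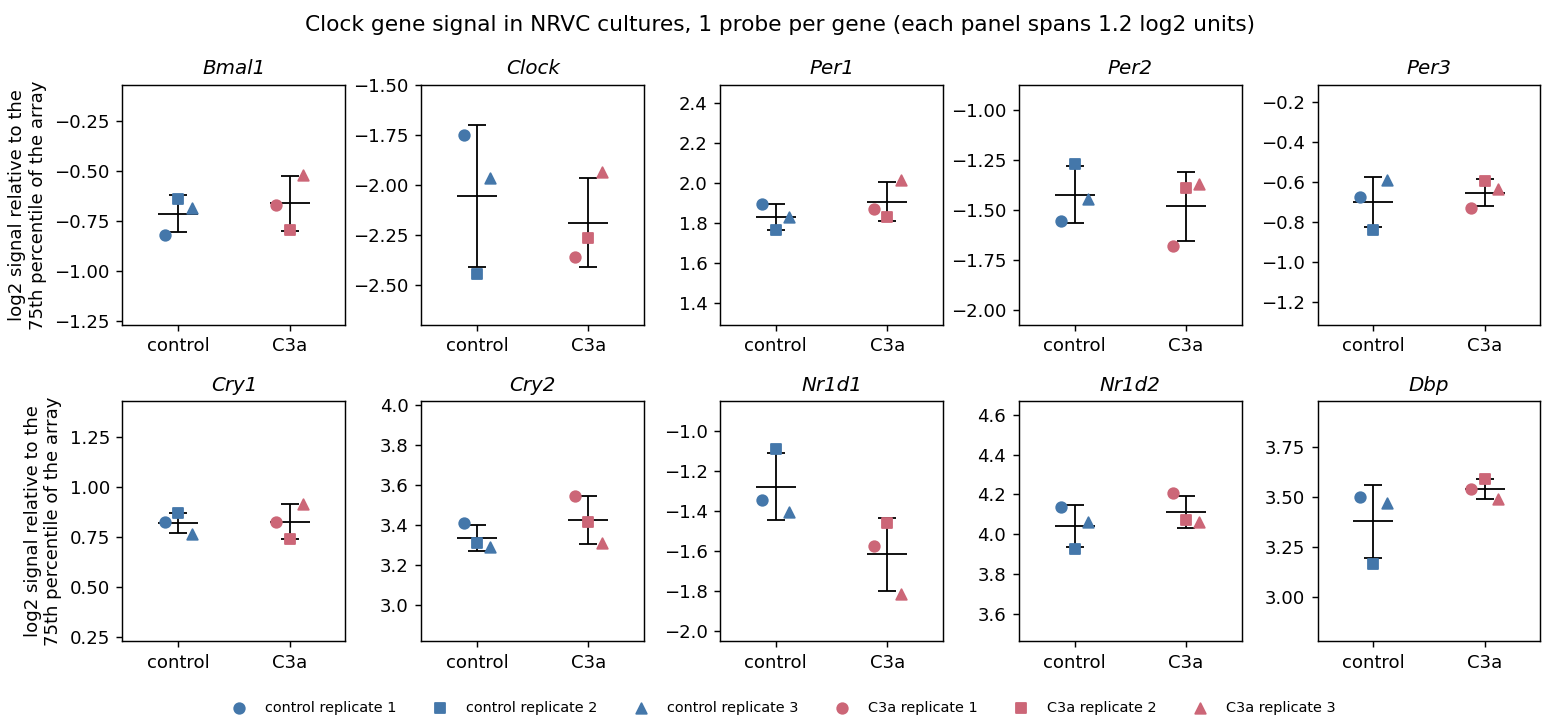
Log2 signal, scaled to each array's 75th percentile, for each clock gene on the 6 arrays, with 3 control and 3 C3a cultures, black bars for the mean and SD, and marker shapes for the replicate number. For Nr1d1 all 3 C3a arrays lie below all 3 controls, and for the other 9 genes the groups overlap.

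Nr1d1 encodes REV-ERB alpha, a repressor of Bmal1 that binds elements with the core marked in the Bmal1 promoter above, where binding was not measured. Its signal was -1.35, -1.09 and -1.40 in control replicates 1 to 3 and -1.58, -1.46 and -1.81 in C3a replicates 1 to 3. The highest value was that of control replicate 2 and the lowest that of C3a replicate 3, and the groups did not overlap, with all C3a arrays below all controls, as for 4.84% of all genes tested. Controls averaged -1.28 ± 0.17 (SD, n = 3), and C3a cultures averaged -1.62 ± 0.18 (SD, n = 3). The log2 fold change was -0.34 (standard error 0.14, 95% confidence interval -0.66 to -0.017), or 1.26-fold lower. The unadjusted p from limma was 0.0416, rank 1122 of the 23438 probes compared, and the adjusted p from limma was 0.742. In pairs of equal replicate number the difference was -0.23, -0.37 and -0.41, lower in 3 of 3 pairs, and with the replicate block the unadjusted p from limma was 0.0124 and the adjusted p 0.261. The exact permutation test over 3 against 3 arrays gave p = 0.1 (two-sided), the smallest that this design allows.

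The Nr1d1 signal moved with the brightness of the array. Over the 6 arrays it correlated with the log2 of the 75th percentile at Pearson r = 0.96 (two-sided exact permutation p = 0.00972, adjusted p = 0.194 over 20 relations of members with array measures) and Spearman rho = 0.83 (exact permutation p = 0.0583, adjusted p = 0.389). Without the 2 arrays farthest from the median brightness r was 0.73. The 75th percentile was 273, 367 and 269 intensity units on control replicates 1 to 3 and 230, 288 and 207 on C3a replicates 1 to 3. The brightest array was thus the control with the highest Nr1d1 value and the dimmest was the C3a array with the lowest. An r at least this high was found for 1.41% of the genes tested, and an r at least this far from 0 in either direction for 2.77%. The part of brightness in the lower Nr1d1 signal was not tested.

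**Figure D2:**
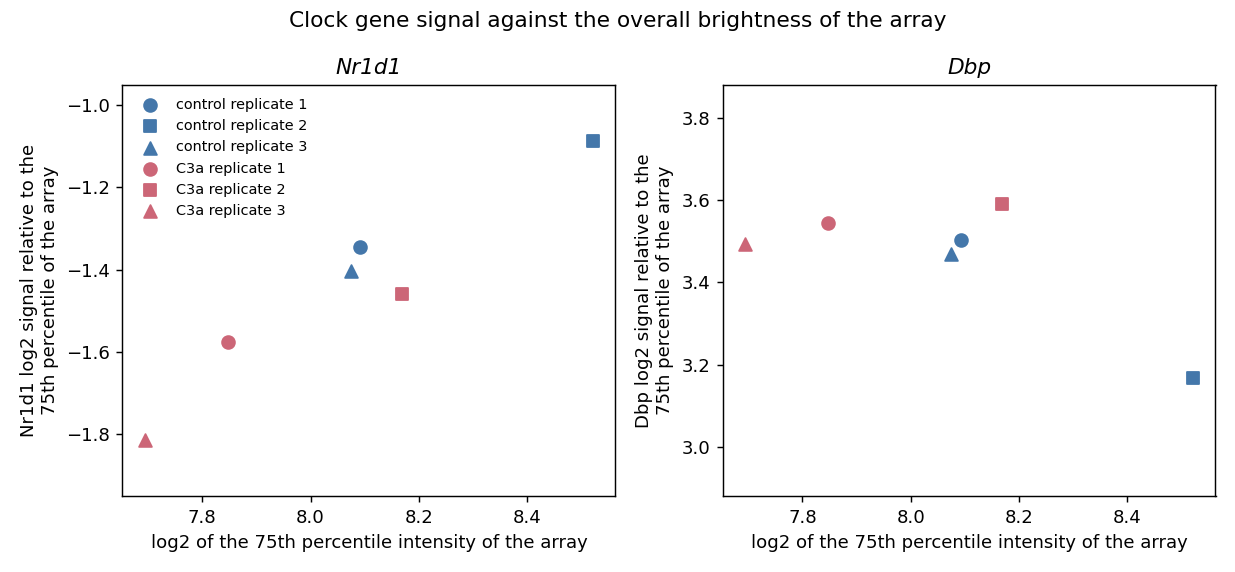
Scaled log2 signal of Nr1d1 and Dbp against the log2 of the array's 75th percentile in intensity units, with 1 point per culture. Nr1d1 climbs from -1.81 on the dimmest array to -1.09 on the brightest, while Dbp is lowest, at 3.17, on the brightest array.

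Before scaling, the Nr1d1 intensities were 107, 173 and 102 units in the controls and 77.3, 105 and 58.9 with C3a. On that scale the groups overlap, since C3a replicate 2 lies above control replicate 3. The Nr1d1 gene overlaps Thra, the thyroid hormone receptor alpha gene, in the rat gene table. The Thra probe, which was bright on all 6 arrays, had a log2 fold change of 0.094 (standard error 0.10, adjusted p = 0.787 from limma). Under other settings the Nr1d1 value ran from -0.79 to -0.14 and stayed below 0 in 21 of 21, and the unadjusted p from limma or the variance test was under 0.05 in 10 of 21. It was -0.14 with normexp background correction, at an unadjusted p from limma of 0.147, and -0.20 with array weights, at 0.101. The unadjusted call was lost when any of 4 arrays was left out. Without control replicate 2 the value was -0.24, at an unadjusted p from limma of 0.113, and without C3a replicate 3 it was -0.24, at 0.129. Without control replicate 1 it was -0.37, at 0.0546, and without C3a replicate 1 the unadjusted p was 0.0735.

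Nr1d2 encodes REV-ERB beta, which shares its DNA element with REV-ERB alpha. Its brighter probe read 4.14, 3.93 and 4.06 in control replicates 1 to 3 and 4.21, 4.07 and 4.06 in C3a replicates 1 to 3. The groups overlap, and replicate 1 was the highest of its group in both. The log2 fold change was 0.071 (95% confidence interval -0.17 to 0.31, adjusted p = 0.840 from limma). A dimmer Nr1d2 probe had a log2 fold change of 0.28 (95% confidence interval -0.099 to 0.66, adjusted p = 0.742 from limma) and was higher with C3a in 3 of 3 pairs. With the replicate block its unadjusted p from limma was 0.0202 and its adjusted p 0.289.

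Bmal1 and Clock encode the activators. Bmal1 read -0.82, -0.64 and -0.68 in the controls and -0.67, -0.79 and -0.52 with C3a. The lowest value was that of control replicate 1 and the highest that of C3a replicate 3, with the groups overlapping. Its log2 fold change was 0.052 (standard error 0.11, 95% confidence interval -0.21 to 0.31, adjusted p = 0.893 from limma). Clock read -1.75, -2.45 and -1.97 in the controls and -2.36, -2.26 and -1.94 with C3a, so that the controls alone spanned the full range of 0.70 log2 units. The Clock log2 fold change was -0.13 (standard error 0.20, 95% confidence interval -0.61 to 0.34, adjusted p = 0.847 from limma), the widest interval of the 10 genes. A dimmer Clock probe, well above background on 2 of 3 controls and 3 of 3 C3a arrays, gave 0.33 (adjusted p = 0.751 from limma), so the probes of Clock differ in sign.

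The PER proteins are the repressors that return to the nucleus, and Per1 and Per2 also respond at once to hormones and cAMP. Per1 read 1.90, 1.77 and 1.83 in the controls and 1.87, 1.83 and 2.02 with C3a. Per2 read -1.55, -1.27 and -1.44 in the controls and -1.68, -1.39 and -1.37 with C3a. Per3 read -0.68, -0.84 and -0.59 in the controls and -0.73, -0.60 and -0.64 with C3a. In all 3 Per genes the groups overlap. The log2 fold changes were 0.076 for Per1 (95% confidence interval -0.15 to 0.31), -0.058 for Per2 (-0.36 to 0.25) and 0.047 for Per3 (-0.20 to 0.29). Their adjusted p from limma lay at 0.819, 0.898 and 0.897. A dimmer Per1 probe, well above background on 2 of 3 controls, gave -0.021 (adjusted p = 0.964 from limma).

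CRY1 and CRY2 are the partners of the PER proteins and the stronger inhibitors of BMAL1 and CLOCK. Cry1 read 0.83, 0.87 and 0.77 in the controls and 0.83, 0.74 and 0.92 with C3a, the smallest range of the 10 genes at 0.17 log2 units. Its log2 fold change was 0.0071 (95% confidence interval -0.22 to 0.23, adjusted p = 0.984 from limma). Cry2 read 3.41, 3.31 and 3.29 in the controls and 3.55, 3.41 and 3.31 with C3a. The Cry2 groups overlap, although each C3a culture lay above the control of the same number. The log2 fold change of Cry2 was 0.088 (95% confidence interval -0.15 to 0.33, adjusted p = 0.804 from limma).

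DBP is the output factor of the clock, and its gene is among the most direct targets of BMAL1 and CLOCK. Dbp read 3.50, 3.17 and 3.47 in the controls and 3.54, 3.59 and 3.49 with C3a. Control replicate 2 stood below the other 5 arrays, which lay between 3.47 and 3.59, and the groups overlap. The log2 fold change was 0.16 (95% confidence interval -0.11 to 0.44, adjusted p = 0.744 from limma) and 0.057 without control replicate 2. The other Dbp probe gave 0.14 (adjusted p = 0.756 from limma).

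**Figure D3:**
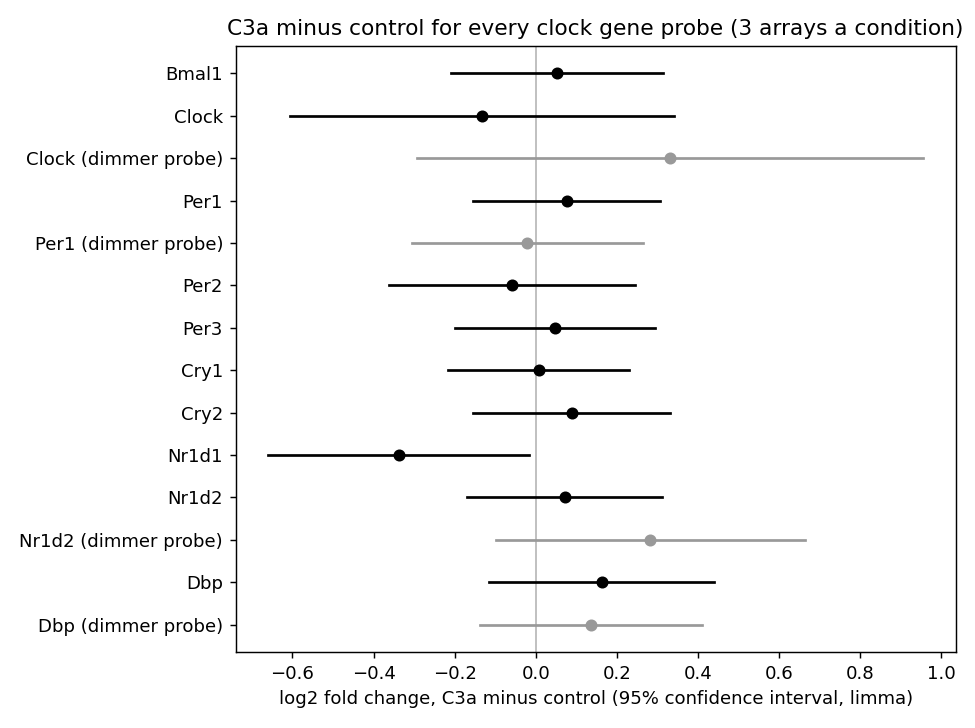
Log2 fold change of C3a minus control with the 95% confidence interval from limma for the 14 clock gene probes, black for the brighter probe of each gene and grey for dimmer ones. The interval of Nr1d1, -0.66 to -0.017, is the one that leaves out 0.

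Outside Nr1d1, the members lay between -0.13 and 0.16 in log2 fold change by the brightest probe of each gene. In 8 of these 9 genes the 95% confidence interval of that probe stayed within 0.5 log2 units of 0. Over all 9 it allowed a change of at most 1.52-fold down or 1.36-fold up. The intervals of the dimmer Clock and Nr1d2 probes reached further, to 1.94-fold and 1.58-fold up.

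Agreement between probes of the same gene differed. The Dbp probes tracked each other over the 6 arrays at r = 0.97 (two-sided exact permutation p = 0.0278, adjusted p = 0.111 over 4 genes) and rho = 0.83 (exact permutation p = 0.0583, adjusted p = 0.233), and without the 2 farthest arrays r was 1.00. For Clock, Per1 and Nr1d2 the r between probes was -0.38, -0.0075 and 0.11, with exact permutation p of 0.542, 0.992 and 0.849, adjusted p of 0.992 each, and with rho of -0.029, 0.029 and -0.20 (exact permutation p of 1, 1 and 0.714, adjusted p of 1 each). Without the 2 farthest arrays r was 0.84 for Clock, -0.52 for Per1 and -0.83 for Nr1d2, so the value for Clock rested on those arrays. For Per1 and Nr1d2 the probes did not track each other on either set of arrays.

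Whether the activator and repressor arms moved together was asked over the 6 cultures. Of the 16 pairs that set Bmal1 or Clock against a repressor or output gene, 8 had a Pearson r above 0 and 8 below, with a median of -0.058 and a range from -0.44 to 0.75. Over all 45 pairs of the 10 genes, 2 had an unadjusted exact permutation p under 0.05 for Pearson r and 0 had an adjusted one. Bmal1 and Nr1d1, target and repressor, gave r = -0.44 (exact permutation p = 0.385, adjusted p = 0.808) and rho = -0.37 (exact permutation p = 0.497, adjusted p = 0.868). Without the 2 arrays farthest from the Bmal1 median this r was 0.46, so its sign rested on those arrays. Bmal1 and Cry1 gave the highest r of the activator pairs, 0.75 (exact permutation p = 0.0778, adjusted p = 0.583), with rho = 0.66 (exact permutation p = 0.175, adjusted p = 0.868) and r = 0.86 without the 2 farthest arrays. As deviations from the mean of each condition, these pairs gave -0.38 and 0.76.

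Pairs within the repressor arm gave the largest values. Per2 and Nr1d2 ran opposite at r = -0.95 (exact permutation p = 0.00417, adjusted p = 0.188 over 45 pairs) and rho = -0.94 (exact permutation p = 0.0167, adjusted p = 0.750), with r = -0.91 without the 2 farthest arrays and -0.97 as deviations. Per1 and Nr1d1 gave r = -0.88 (exact permutation p = 0.0361, adjusted p = 0.583) and rho = -0.66 (exact permutation p = 0.175, adjusted p = 0.868), and r was 0.10 without the 2 arrays farthest from the Per1 median, so this relation rested on them. Per1 also fell with brightness, at r = -0.88 with the 75th percentile (exact permutation p = 0.0361, adjusted p = 0.241), rho = -0.71 (exact permutation p = 0.136, adjusted p = 0.681) and r = -0.38 without the 2 farthest arrays.

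**Figure D4:**
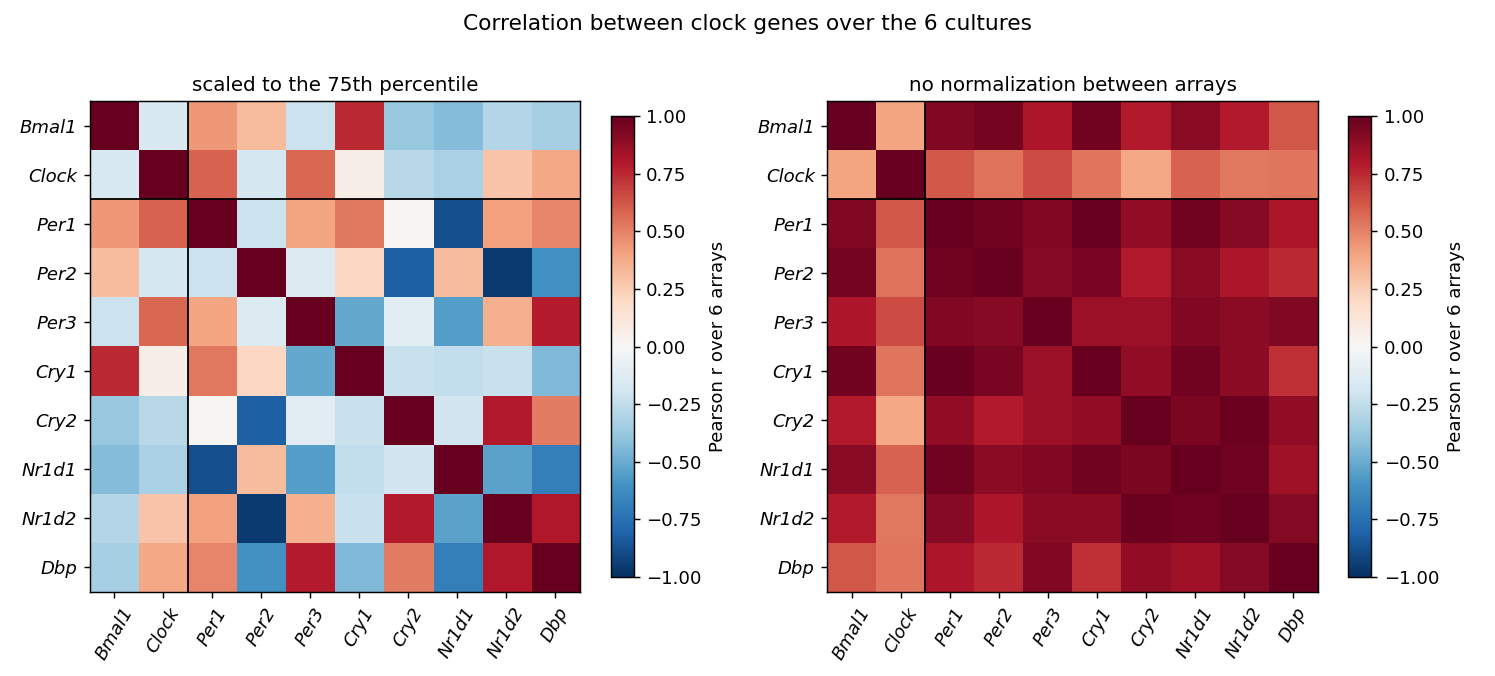
Pearson r over the 6 arrays for each pair of clock genes, with signals scaled to the 75th percentile on the left and unscaled on the right, and black lines setting off the activators Bmal1 and Clock. Scaled, 20 of 45 pairs lie above 0 with a median r of -0.15, and unscaled all 45 lie above 0 with a median of 0.89.

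The sign of these relations depended on the scaling. The mean of the activators and the mean of the 8 other genes correlated at r = 0.12 with the 75th percentile, at -0.60 when each array was set to its median and at 0.87 without normalization, where a brighter array raises every probe. Per2 and Nr1d2 gave -0.80 after quantile normalization, -0.36 with the array median and 0.81 without normalization. No joint movement of the arms was therefore established in either direction.

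By Pearson r over the 6 arrays, among 8556 genes well above background on all of them, the patterns most like that of Bmal1 were Tsg101 (0.99), Arf3 (0.98) and Smad4 (0.98), and 38 genes reached 0.9. Those most like Dbp were Pxmp2, Macrod1 and Surf6, each at 1.00 after rounding, and 669 genes reached 0.9. Dbp therefore shared its pattern, low on control replicate 2, with many genes. The pattern of Bmal1 was a different one, and fewer genes shared it. These counts are descriptions over 6 arrays on a common scaling, and the number expected by chance was not worked out.

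Further clock genes were read from lists of the other parts of the loop, its modifiers and its targets. Of 59 genes, 53 could be named on the array and 45 were well above background on all arrays of a condition. Among these 45, 0 passed an adjusted p of 0.05 in limma, against 0.0% of all genes tested, and 0 an unadjusted p of 0.05, against 5.35%. Above 0 lay 28 of the 45 (62.2%, against 60.7% of all genes) and below it 17, with a median log2 fold change of 0.050 against 0.036 over all genes. Npas2 and Bmal2, the alternative activators, were well above background on 1 of 6 arrays each and Rorb on 0, so the activator side was read from Bmal1 and Clock alone. The Bmal2 probe read 186360 intensity units on C3a replicate 2 and 14.9 or less on the other 5 arrays, and no fold change is given for it. Of the other repressors 3 were measured, and the largest change was that of Timeless at -0.18 (adjusted p = 0.742 from limma). For Timeless all C3a arrays lay below all controls, as for 4.84% of all genes tested. Tef, a relative of DBP, stood at -0.035 (adjusted p = 0.920 from limma) and at 0.024 without C3a replicate 3.

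Of 19 kinases, ligases and cofactors of the clock proteins, 13 lay above 0 and 6 below. The largest change was -0.45 for Hdac3 (95% confidence interval -0.97 to 0.057, adjusted p = 0.742 from limma), the deacetylase that REV-ERB proteins recruit through a corepressor. Hdac3 read 0.033, 0.38 and -0.068 in the controls and -0.77, 0.024 and -0.28 with C3a, so the groups overlap. With the replicate block its unadjusted p from limma was 0.0187 and its adjusted p 0.283. Without C3a replicate 1 the Hdac3 value was -0.24. With the replicate block 2 of the 45 further genes (4.44%, against 11.9% of all genes) had an unadjusted p from limma under 0.05. The other was Csnk2a1, a casein kinase subunit, at 0.22 with an unadjusted p of 0.0457 and an adjusted p of 0.358. Of 13 clock-controlled genes of the heart, 8 lay above 0 and 5 below, the largest change being 0.24 for Cdkn1a, a cell cycle inhibitor, with all C3a arrays above all controls, as for 8.15% of all genes tested (adjusted p = 0.742 from limma). Without control replicate 2 the Cdkn1a value was 0.12. Of 9 genes that take part in the responses to glucocorticoids and cAMP, signals that set Per1 and Per2, 6 lay above 0 and 3 below. The largest there was Zbtb16 at -0.44 (95% confidence interval -1.48 to 0.61, adjusted p = 0.777 from limma). Zbtb16 read -0.88, -2.59 and -2.33 in the controls and -2.52, -2.68 and -1.91 with C3a. Its value rested on control replicate 1, without which it was 0.091.

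In these bulk cultures, fewer cells of a type and less RNA per cell cannot be told apart. The summed signal of the 8 fibroblast markers lay between 6.77 and 6.93 log2 units in the controls and between 6.74 and 6.92 with C3a, a sum to which the brightest probes contribute most. Of these markers, 3 lay above 0 in log2 fold change and 5 below, from -0.54 to 0.024. In limma 1 of 8 had an unadjusted p under 0.05, against 5.35% of all genes, and 2 of 8 with the replicate block, against 11.9%. Lum, a matrix proteoglycan, had a log2 fold change of -0.54, at an unadjusted p of 0.0369 from limma and 0.00517 with the block (adjusted p = 0.742 and 0.220). Vim, which encodes the filament protein vimentin, had -0.49, at 0.0519 and 0.00208 (adjusted p = 0.742 and 0.220), and was lower in 3 of 3 pairs. Of the other fibroblast markers, Postn had -0.12, and Col1a1, Col1a2, Col3a1, Dcn and Pdgfra lay between -0.055 and 0.024. The summed signal of the 8 cardiomyocyte markers lay between 11.57 and 11.94 in the controls and between 11.87 and 12.04 with C3a. Of these markers, 5 lay above 0 in log2 fold change and 3 below, from -0.30 to 0.22. In limma 0 of 8 had an unadjusted p under 0.05, against 5.35% of all genes, and 1 of 8 with the replicate block, against 11.9%. That was Actn2, a sarcomere protein gene, at -0.30 with an unadjusted p from limma of 0.163 and 0.0149 with the block (adjusted p = 0.742 and 0.268). Vim and Actn2, like Nr1d1, were highest on the brightest array and lowest on the dimmest. The part of brightness in them, and that of cell types in the Nr1d1 value, was not tested.

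**Figure D5:**
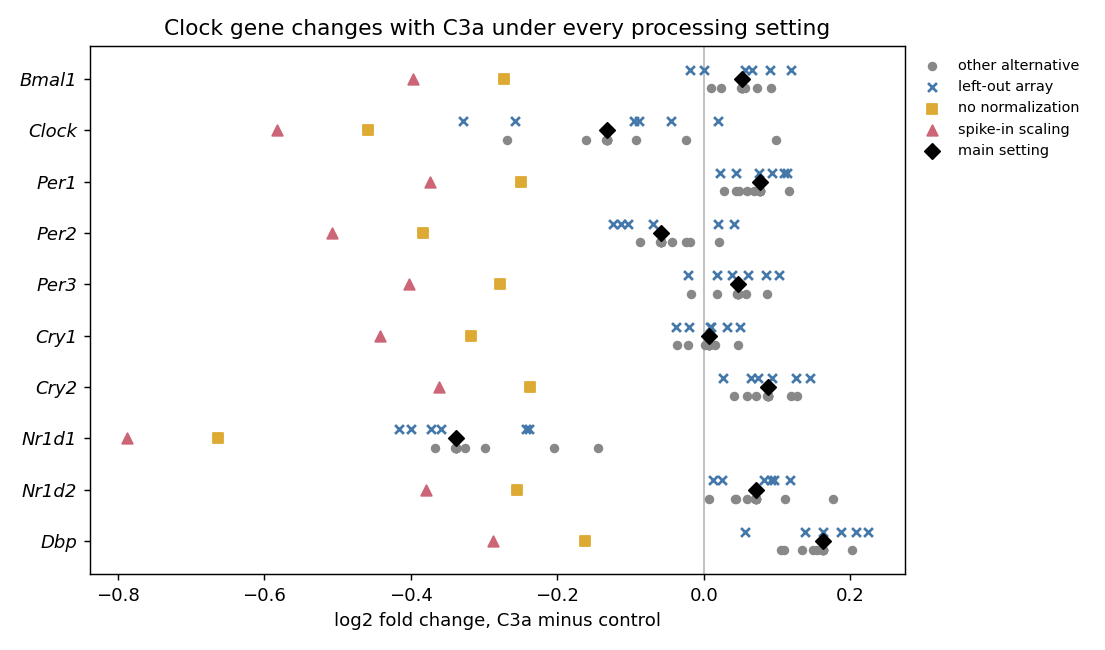
Log2 fold change of C3a minus control for each clock gene under the main setting and 21 alternatives, with colours and shapes for left-out arrays, no normalization, spike-in scaling and the rest. Nr1d1 stays below 0 throughout, while the other genes sit near 0 and shift together to lower values without normalization and with spike-in scaling.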

How the data were processed

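RNA of 6 NRVC cultures, 3 control and 3 C3a, was measured on 1-colour Agilent arrays. The authors deposited scanner files from Agilent Feature Extraction 11.5.1.1 (per the sample labels), with the intensity of each spot after background subtraction and its quality flags, not normalized between arrays. They also deposited log2 values, which matched the scanner log2 signal minus the 75th percentile of each array to within 0.0062 at the median. Scale and direction are thereby known, and genes were not centred.

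Control and outlier-flagged spots were left out, and spots of one probe were averaged. A probe counted as well above background where at least 50% of its spots did. Kept were the 23438 of 45572 probes that met this on every array of the controls, of the C3a cultures, or of both. Accessions of 46.3% of the probes were in the RefSeq table of GRCr8. The conditions were compared in limma (version 3.58.1, R 4.3.3; two-sided, Benjamini-Hochberg over the kept probes). The study's variance test was an alternative. Background shares were counted over 10390 genes, 1 probe each. Correlations used exact permutation over the 720 pairings of 6 arrays (scipy 1.17.1), adjusted within each family. The limma step was tested on simulated data. Same-numbered cultures deviated together, with r of 0.28, 0.32 and 0.31 over the kept probes, which is where the pairing comes from. The number of arrays limits the precision, and nothing in the sources used here says that the cultures came from separate preparations, so p-values measure the spread between these samples. Members and lists were chosen with earlier results of these data known. Named were all members, further clock genes at an unadjusted p under 0.05 (none), the largest change of each list, and the 3 nearest patterns to Bmal1 and Dbp. Other genes, named after their values were seen, were Csnk2a1, Lum, Vim and the other fibroblast markers, Actn2, Thra, Npas2, Bmal2 and Rorb. Alternatives covered scaling, background correction, filters, spread, pairing, probe choice and left-out arrays. Leaving out arrays for the largest change of each list was chosen after seeing the data.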

Additional observations from a re-analysis of the deposited data

How the results depend on the processing

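At the adjusted threshold, 0 clock genes passed in all settings run. Among all probes 0 passed except without normalization (4) and with spike-in scaling (16). These scalings moved the median of all kept probes to -0.28 and -0.40, against 0.048, and that of the clock genes to -0.28 and -0.40. Both differ from the 75th percentile scaling only by a constant per array. Relative to the median of all probes, each clock gene therefore has the same value under both by arithmetic, -0.39 for Nr1d1. That equality is no check of the value. The 1 clock gene lower at an unadjusted p under 0.05 became 0 with the array median, array weights, normexp, quantile normalization, a variance trend, no filter on dim probes and the methods' test, and 0 to 1 when each array was left out. Normexp, planned on the mean spot signal or else the median, used the median. The correlation of the arms, 0.12, became 0.46 with the percentile over detected probes, -0.60 with the array median, 0.87 without normalization and 0.95 with spike-in scaling, and ran from -0.31 (without control replicate 2) to 0.52 (without C3a replicate 2). The cause was not tested.

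Signs turned without normalization for Bmal1 (-0.27), Per1 (-0.25), Per3 (-0.28), Cry1 (-0.32), Cry2 (-0.24), Nr1d2 (-0.25) and Dbp (-0.16), and with spike-in scaling for Bmal1 (-0.40), Per1 (-0.37), Per3 (-0.40), Cry1 (-0.44), Cry2 (-0.36), Nr1d2 (-0.38) and Dbp (-0.29). They also turned for Cry1 with the percentile over detected probes (-0.022) and normexp (-0.036), Per2 with normexp (0.021), Per3 with array weights (-0.017) and Clock as the mean of its probes (0.099). Leaving out each array gave -0.019 to 0.12 for Bmal1, -0.33 to 0.020 for Clock, -0.12 to 0.042 for Per2, -0.021 to 0.10 for Per3 and -0.037 to 0.050 for Cry1. It also gave -0.071 to 0.024 for Tef and -0.77 to 0.091 for Zbtb16. The replicate block left the count of clock genes at an unadjusted p under 0.05 at 1 and changed no other call of a clock gene's brightest probe. An order of the genes by level was planned and not given, since probes are on different scales.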
